A study of Mus musculus with 4 samples.

Results

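The 10 genes B2m, H2-K1, H2-D1, Tap1, Tap2, Tapbp, Psmb8, Psmb9, Nlrc5 and Cd74, which serve antigen presentation and the immunoproteasome, were followed in retinal RNA of 3-week-old mice. They were chosen by name, and all 10 were among the 52636 genes of the deposited table and passed the filter on low values that left 16833 genes for testing. The groups were 2 libraries from mice with the mutation Q344X, a truncating change that the series' title ties to autosomal dominant retinitis pigmentosa, and 2 libraries from WT mice, and the question was which transcripts differ in the mutant retina. The labels give neither strain, sex, litter nor number of mutant alleles for either group. According to the design text, 2 of 3 replicates per group were kept, since poor RNA and outliers were left out. The protocol for extraction instead counts 3 Q344X and 2 WT animals.

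MHC class I molecules carry peptides from inside a cell to its surface, where CD8 T cells read them. The proteasome cuts proteins into peptides, the TAP transporter brings these into the endoplasmic reticulum, and tapasin helps to load them onto a heavy chain paired with beta-2-microglobulin. Interferon-gamma is known to raise the genes of this pathway and to exchange standard proteasome subunits for those of the immunoproteasome. MHC class II molecules, which need the invariant chain, are made mainly by professional antigen-presenting cells. The healthy retina is an immune-privileged tissue in which neurons express little MHC.

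Values are normalized counts, which are gene counts divided by a size factor per library. Reads in genes came to 19034261 and 19346580 in the Q344X libraries and 18452679 and 19706573 in the WT libraries. Rod markers were abundant in all 4 libraries of this retinal RNA. In bulk tissue, fewer cells of a type and less RNA per cell cannot be told apart.

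Of the 10 genes, H2-K1 and Cd74 fell in the Q344X retina, 0 rose and 8 did not pass the threshold (limma, adjusted p under 0.05 over all tested genes). Over all tested genes, 9.10% were called lower and 5.46% higher, which is 14.6% in either direction. The counts of called genes in each list below stand beside these shares. The share of all tested genes at an unadjusted p under 0.05 is not given. In edgeR, run on the recovered reads, the same 2 genes fell and 0 rose, with 9.26% of all tested genes called lower and 5.11% higher. The median log2 fold change of the 10 genes was -0.07, beside 0.02 over all tested genes. The libraries of the groups did not overlap in 5 of the 10 genes, as in 63.1% of all tested genes. Without WT replicate 1 only Cd74 fell, and without WT replicate 2 none of the 10 did. Nlrc5 was called higher when Q344X replicate 2 was left out. A fit without 1 library leaves a group of 1, which is assumed to vary like the other group and like other genes, so such calls carry no spread of their own for that group. In a test of every gene above 0, which adjusts over more genes and pools variances across them, 0 of the 10 genes passed (limma). Of the other genes named here, H2-Q2, Cd1d1, Hfe, Psmb3, Irf9, Nfya, Irf2, Zbtb46, Tie1, Aqp4, Pde6a, Hbb-bt, Hba-a1, C4b, Gm17705, Ly6g5b, Tnxb and Prrt1 also lost their calls. With 2 libraries in each group, 0.333 is the smallest p that an exact permutation could reach, and every adjusted p here leans on variances that limma pools across genes.

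**Figure D1:**
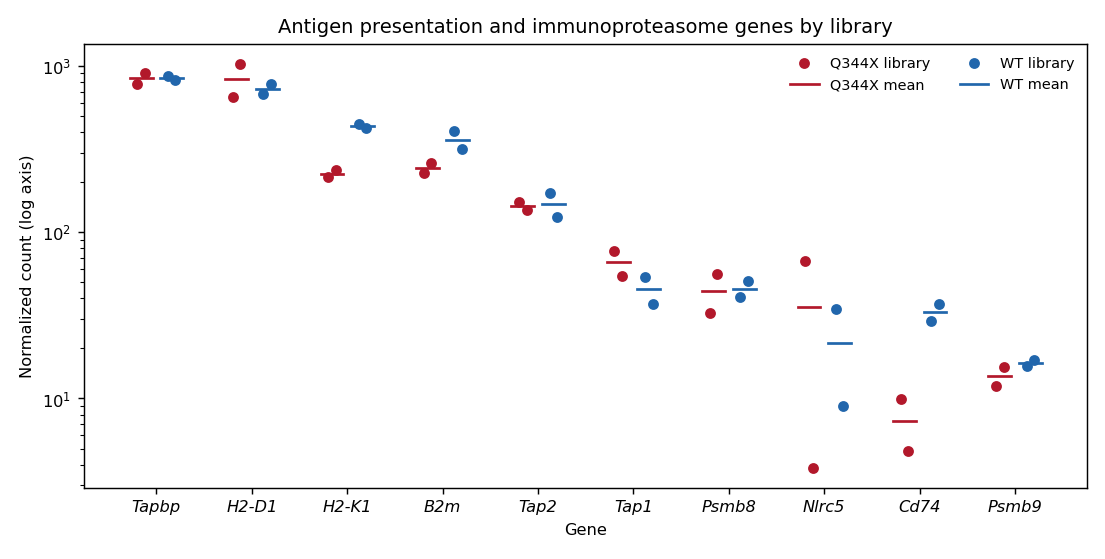
Normalized counts (log axis) of the 10 genes in each library, ordered by mean level, with Q344X in red left of WT in blue; points are libraries and bars are group means (n = 2 each). H2-K1 and Cd74 are lower in both Q344X libraries, the groups overlap for Tapbp and Tap2, and Nlrc5 varies widely within each group.

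Of the 3 class I chains among the 10 genes, H2-K1 passed the test and H2-D1 and B2m did not. H2-K1, the K heavy chain (ENSMUSG00000061232, chromosome 17, 33996017 to 34000347, minus strand, GRCm38), had 214 and 236 normalized counts in the Q344X libraries, against 445 and 423 in the WT libraries. Both Q344X libraries were thus below both WT libraries, with little spread within a group. Its level fell to 0.519 of that in WT (log2 fold change -0.95 ± 0.19, SE, adjusted p = 0.0300, limma). The estimate lay between -1.02 and -0.88 when single libraries were left out, but adjusted p was 0.179 without WT replicate 1 and 0.132 without WT replicate 2, and 0.0698 in a test of every gene above 0.

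H2-D1, the D heavy chain (ENSMUSG00000073411, chromosome 17, 35262730 to 35267499, plus strand), had 653 and 1024 normalized counts in the Q344X libraries, against 674 and 781 in the WT libraries. The groups overlapped, and the WT values lay between those of the Q344X libraries. Its log2 fold change was 0.17 ± 0.26 (SE, adjusted p = 0.670), with a 95% interval of -0.47 to 0.81, and it was -0.15 without Q344X replicate 2. Within each library, the ratio of H2-K1 to H2-D1 in normalized counts per kb of exon was 0.287 and 0.202 in the Q344X libraries, against 0.580 and 0.476 in the WT libraries. The ratio was lower in both Q344X libraries (exact permutation p = 0.333, the smallest that 2 against 2 can give).

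B2m, the light chain that class I heavy chains share (ENSMUSG00000060802, chromosome 2, 122147686 to 122153083, plus strand), had 227 and 259 normalized counts in the Q344X libraries, against 406 and 316 in the WT libraries. The groups did not overlap, yet the log2 fold change of -0.56 ± 0.22 (SE) did not pass (adjusted p = 0.135). Its 95% interval was -1.10 to -0.02. The ratio of B2m to H2-D1 per kb was 1.04 and 0.759 in the Q344X libraries, against 1.80 and 1.21 in the WT libraries. That of B2m to H2-K1 was 3.62 and 3.75 in the Q344X libraries, against 3.11 and 2.55 in the WT libraries. B2m was thus lower relative to H2-D1 and higher relative to H2-K1 in both Q344X libraries, each with an exact permutation p of 0.333.

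Class I genes resemble each other, which bears on how reads are assigned. Of the stretches of 50 bases in annotated H2-K1 transcripts, 9.63% also occur in transcripts of other genes, most often H2-Q10, and 12.8% do for H2-D1, most often H2-Q1. For B2m, Cd74, Nlrc5 and Psmb9 the share was 0, and for the other 4 genes it was at most 2.87%. Neither the read length nor the treatment of multiply mapped reads is stated by the labels or notes. In this respect, values of class I heavy chains are less certain than those of the other genes. The labels give no strain, and differences of class I or class II alleles from the reference build, in either group, were not examined.

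The promoters of the class I chains are shown because the regulators of these genes were also measured here. The sequences are those of RefSeq on GRCm38.p6, 250 bases before the annotated start, with matches to a few known elements in capitals. The elements were the CCAAT box that NF-Y binds (CCAAT), a CRE core (TGACG), the core that interferon regulatory factors bind (AANNGAAA) and the NF-kappaB consensus, searched on both strands. They were chosen after the sequences were seen, and none of the matches overlaps a match to another element.
H2-K1, chr17:34000348-34000597, minus strand: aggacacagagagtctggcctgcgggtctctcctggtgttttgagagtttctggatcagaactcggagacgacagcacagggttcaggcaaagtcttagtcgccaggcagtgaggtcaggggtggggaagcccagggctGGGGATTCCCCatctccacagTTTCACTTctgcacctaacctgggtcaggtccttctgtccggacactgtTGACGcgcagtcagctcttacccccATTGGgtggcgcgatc
B2m, chr2:122147437-122147686, plus strand: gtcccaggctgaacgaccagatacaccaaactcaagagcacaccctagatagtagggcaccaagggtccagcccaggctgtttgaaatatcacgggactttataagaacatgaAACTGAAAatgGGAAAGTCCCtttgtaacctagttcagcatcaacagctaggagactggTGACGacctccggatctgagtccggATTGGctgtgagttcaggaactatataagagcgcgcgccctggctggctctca

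The H2-K1 window has 2 overlapping NF-kappaB matches, and in the B2m window the order of the NF-kappaB and IRF matches is the other way round. In the H2-K1 promoter the NF-kappaB and IRF matches stand next to each other, followed by the CRE core and the CCAAT box towards the start. Matching stretches of 30 bases from H2-K1 and H2-D1 are set below each other. Both are reference sequences and not those of the mice, and their part in the levels of these genes was not tested.
H2-K1, chr17:34000429-34000458, minus strand: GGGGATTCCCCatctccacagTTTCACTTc
H2-D1, chr17:35262923-35262952, plus strand: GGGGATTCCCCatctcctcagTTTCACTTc
They differ by A18T (H2-K1 base first, counted from 1 at the 5′ end), which lies between the NF-kappaB and IRF matches. The H2-D1 stretch lies before the RefSeq start but inside the first exon that GENCODE M21 annotates for the gene. The windows of Tap1, Tapbp, Psmb8 and Psmb9 were searched too and held no IRF or NF-kappaB match. That of Psmb8 held no match to any of the elements. Across 32851 promoters of the same length, 33.8% held a CCAAT box, 17.8% a CRE core, 21.3% an IRF core and 7.25% an NF-kappaB match. A match is a description of the letters and not a site shown to be in use.

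Psmb8 and Psmb9, subunits of the immunoproteasome, were rare. Psmb8, also called LMP7 (chromosome 17, 34197721 to 34201454), had 32.7 and 55.7 normalized counts in the Q344X libraries, against 40.6 and 51.1 in the WT libraries. Psmb9, also called LMP2 (chromosome 17, 34181987 to 34187764), had 11.9 and 15.4 in the Q344X libraries, against 15.6 and 17.04 in the WT libraries. The Psmb8 groups overlapped, and those of Psmb9 lay apart by less than 1 read is worth. Log2 fold changes were -0.09 ± 0.37 and -0.25 ± 0.41 (SE, adjusted p = 0.878 and 0.689), and the 95% interval for Psmb9 ran from -1.25 to 0.74. Psmb9 rested on 12 to 17 reads per library, and its interval holds changes in either direction. The smallest change of Psmb9 that could have been called was not computed.

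Psmb3, a core subunit in the list of the standard proteasome, was the 1 gene to pass among the proteasome genes listed here, and it rose. Psmb10, the third subunit specific to the immunoproteasome, had 202 and 331 normalized counts in the Q344X libraries, against 131 and 138 in the WT libraries. Its log2 fold change of 0.94 ± 0.29 (SE) did not pass (adjusted p = 0.0792), and it was called without Q344X replicate 1, at 1.29. Psme1 and Psme2, which form the PA28 activator, and Pomp, an assembly chaperone, had 0.34, 0.12 and 0.12, so that 0 of 4 genes in this group passed (limma, 1 of 4 at an unadjusted p under 0.05, and 0 in edgeR). Psmb3 had 1242 and 1682 normalized counts in the Q344X libraries, against 580 and 667 in the WT libraries. Among 12 genes of the standard proteasome and its other activators, Psmb3 rose with 1.21 ± 0.22 (adjusted p = 0.0245), 0 fell and 11 did not pass. The median of this list was 0.66, and Psmb4, Psmb7, Psma7 and Psmb6 had 0.78, 0.70, 0.74 and 0.62. Without Q344X replicate 1, 8 of the 12 were called, and without WT replicate 1 none were, Psmb3 included (adjusted p = 0.0626).

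Because Psmb8, Psmb9 and Psmb10 take the places of Psmb5, Psmb6 and Psmb7, their ratios within a library were compared in normalized counts per kb of exon. Psmb9 over Psmb6 was 0.00294 and 0.00244 in the Q344X libraries, against 0.00550 and 0.00450 in the WT libraries. Psmb8 over Psmb5 was 0.0112 and 0.0102 in the Q344X libraries, against 0.0123 and 0.0123 in the WT libraries. Psmb10 over Psmb7 was 0.147 and 0.167 in the Q344X libraries, against 0.144 and 0.122 in the WT libraries. In both groups the immunoproteasome subunit was rarer than its standard counterpart. The first 2 ratios were lower and the last was higher in both Q344X libraries, each with an exact permutation p of 0.333.

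**Figure D2:**
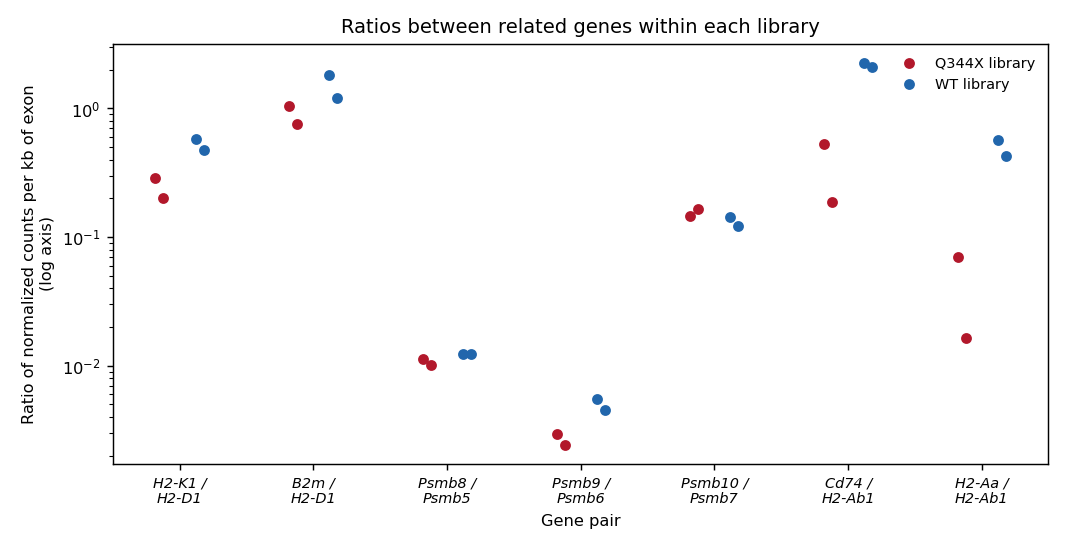
Ratios between related genes within each library, in normalized counts per kb of exon (log axis), with Q344X in red left of WT in blue (2 libraries each). The ratio of H2-K1 to H2-D1 is 0.202 to 0.287 in Q344X against 0.476 to 0.580 in WT, and those of Cd74 and H2-Aa to H2-Ab1 are the farthest apart.

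None of the 3 genes of peptide transport and loading passed the test. Tap1, a subunit of the TAP transporter (chromosome 17, 34187553 to 34197225), had 77.2 and 54.7 normalized counts in the Q344X libraries, against 54.1 and 37.1 in the WT libraries. Tap2, its partner subunit (chromosome 17, 34203527 to 34216321), had 152 and 136 in the Q344X libraries, against 172 and 123 in the WT libraries. The lower Q344X value of Tap1 was just above the higher WT value, whereas both Q344X values of Tap2 lay between those of WT. Log2 fold changes were 0.53 ± 0.34 and -0.01 ± 0.25 (SE, adjusted p = 0.311 and 0.975), with 95% intervals of -0.30 to 1.35 and -0.64 to 0.61. The ratio of Tap1 to Tap2 per kb was 0.350 and 0.277 in the Q344X libraries, against 0.218 and 0.208 in the WT libraries.

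Tapbp, which encodes tapasin (chromosome 17, 33915899 to 33929292), was among the most abundant of the 10 genes, with 779 and 909 normalized counts in the Q344X libraries, against 873 and 824 in the WT libraries. Its log2 fold change was -0.01 ± 0.18 (SE, adjusted p = 0.972), with a 95% interval of -0.46 to 0.44. Of 7 further genes of loading and folding in the endoplasmic reticulum, 0 passed (limma, 1 of 7 at an unadjusted p under 0.05, and 0 in edgeR), and the list median was -0.14. The lectin chaperones Canx and Calr had -0.37 and -0.39, the disulfide isomerase Pdia3 had 0.27 and Hspa5, the chaperone BiP, had -0.14.

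Nlrc5, the transactivator of class I genes (ENSMUSG00000074151, chromosome 8, 94434356 to 94527272, plus strand), was too variable to compare. It had 67.3 and 3.84 normalized counts in the Q344X libraries, against 34.3 and 9.02 in the WT libraries. Both groups thus held 1 high and 1 low library, and the Q344X values enclosed those of WT. The log2 fold change was -0.05 ± 1.29 (SE, adjusted p = 0.982), with a 95% interval of -3.21 to 3.11. Without Q344X replicate 2 it was 1.86 (adjusted p = 0.0351, limma), a value that compares 1 Q344X library with both WT libraries and omits the spread between the Q344X libraries.

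Other regulators of MHC transcription were measured with more reads. Of 22 genes in this list, 3 fell, 0 rose and 19 did not pass (median 0.05). Over all tested genes, 14.6% were called in either direction, so this count is near what any list would hold. Irf9, a factor of the type I interferon response, had 161 and 178 normalized counts in the Q344X libraries, against 378 and 351 in the WT libraries (log2 fold change -1.10 ± 0.20, SE, adjusted p = 0.0240, limma). Irf2, which binds related elements, had 189 and 254 in the Q344X libraries, against 401 and 485 in the WT libraries (-1.01 ± 0.24, adjusted p = 0.0431). Nfya, a subunit of NF-Y, the factor of the CCAAT box, had 514 and 575 in the Q344X libraries, against 1032 and 1286 in the WT libraries (-1.08 ± 0.20, adjusted p = 0.0254). Among those that did not pass, Jak1, Jak2 and Ifnar1, parts of interferon receptor signalling, had 0.03, 0.22 and 0.14, and Creb1 had -0.42. Other genes of the same factor families went both ways, and none passed. The NF-Y subunits Nfyb and Nfyc had 0.31 and -0.28, and Irf1 and Irf8 had 0.42 and 0.41. The NF-kappaB genes Nfkb1, Rela and Relb had 0.21, -0.27 and 0.68. Without Q344X replicate 1, 8 genes of this list were called, without WT replicate 1 there was 1 and without WT replicate 2 none. Irf9 and Irf2 lost their calls without either WT library (adjusted p = 0.0703 to 0.197), Nfya did without WT replicate 2 (0.142), and Irf2 also did under quantile normalization (0.0525) and the length and GC correction (0.0560).

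Cd74, the invariant chain of class II (ENSMUSG00000024610, chromosome 18), had the largest change of the 10 genes. It had 9.90 and 4.80 normalized counts in the Q344X libraries, against 29.1 and 37.1 in the WT libraries, or 10 and 5 reads against 28 and 37. Both WT libraries were well above both Q344X libraries, at a low level in each. The level fell to 0.235 of that in WT (log2 fold change -2.09 ± 0.48, SE, adjusted p = 0.0408, limma). Without WT replicate 2 it did not pass (adjusted p = 0.110), nor did it in a test of every gene above 0 (0.0958).

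Cd74 was the 1 class II gene to pass. Of 13 genes in the class II list, 7 passed the filter, and among these Cd74 fell, 0 rose and 6 did not pass (median 0.08). H2-Aa, the A alpha chain, was below the filter, at 2.97 and 0.96 normalized counts in the Q344X libraries, against 16.6 and 17.04 in the WT libraries. That is 4 reads against 33, a ratio of 0.116 with an exact 95% counting interval of 0.0298 to 0.325. H2-Ab1, which encodes the beta chain that pairs with H2-Aa, had 28.7 and 39.4 in the Q344X libraries, against 19.8 and 27.1 in the WT libraries (log2 fold change 0.52 ± 0.37, SE, adjusted p = 0.355). H2-Aa was lower and H2-Ab1 higher in both Q344X libraries. In normalized counts per kb, Cd74 over H2-Ab1 was 0.527 and 0.187 in the Q344X libraries, against 2.25 and 2.10 in the WT libraries (exact permutation p = 0.333). H2-Aa over H2-Ab1 was 0.0699 and 0.0165 in the Q344X libraries, against 0.569 and 0.426 in the WT libraries, from the few H2-Aa reads given above. H2-DMa, a class II editor, had 0.42, and Ctss and Ifi30, which process peptides in lysosomes, had 0.19 and 0.08, none past the threshold. Ciita, the master regulator of class II, stood at 0 to 2 reads per library.

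Other class I heavy chains also went both ways. Of 18 in the list 13 were tested, of which 2 rose, 2 fell and 9 did not pass (median -0.31). Over all tested genes, 5.46% rose and 9.10% fell. H2-Q2 had 27.7 and 51.8 normalized counts in the Q344X libraries, against 3.12 and 7.02 in the WT libraries (log2 fold change 2.76 ± 0.55, SE, adjusted p = 0.0299). H2-T24 had 1.98 and 0.96 in the Q344X libraries, against 22.9 and 30.1 in the WT libraries (adjusted p = 0.0172). That is 3 reads against 52, a ratio of 0.0551 with a counting interval of 0.0110 to 0.170. Cd1d1, which presents lipids, rose by 1.21 on the log2 scale, and Hfe, an iron-regulating relative of class I, fell by 0.84. The most abundant of those that did not pass were Fcgrt, the neonatal Fc receptor, with -0.27, H2-Q4 with -0.31, Mr1 with -0.45 and H2-T22 with 0.08. Leaving out 1 library gave 1 called gene without WT replicate 2, 2 without WT replicate 1 and up to 5 otherwise. Cd1d1 and Hfe did not pass without either WT library (adjusted p = 0.0542 to 0.280), nor did Hfe under quantile normalization (0.0697). Of 50-base stretches, 16.1% in H2-Q2, 3.17% in H2-T24 and 19.1% in Cd1d1 occur in other genes too.

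**Figure D3:**
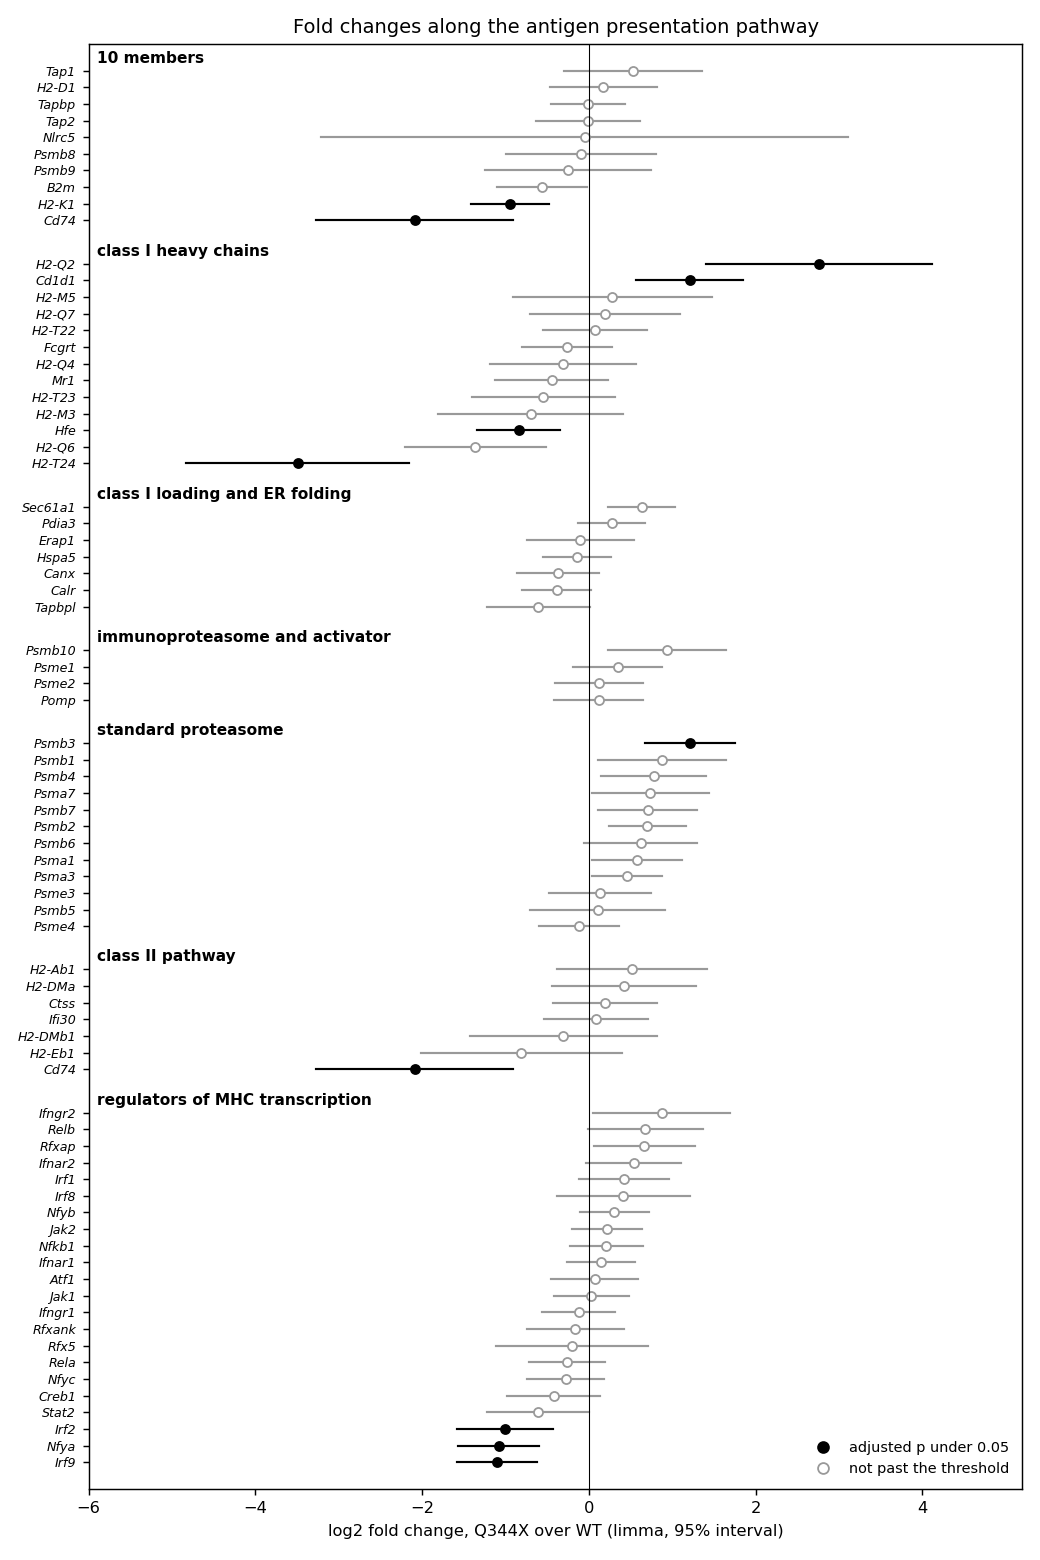
Log2 fold changes of Q344X over WT with 95% intervals (limma) for the 10 genes and 6 pathway lists; filled points passed an adjusted p of 0.05 and open points did not. H2-K1, Cd74, H2-T24, Hfe, Irf9, Nfya and Irf2 lie left of 0, and H2-Q2, Cd1d1 and Psmb3 lie right of it.

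Of the 10 genes, 7 lie in the MHC region of chromosome 17. Psmb9 and Tap1 are on opposite strands with their annotated starts overlapping by 212 bases. How reads there were assigned depends on the strand setting of the count, which is not given. Psmb8 starts 495 bases after Tap1 ends, and Tap2 follows 2072 bases later. None of these 4 neighbours passed the threshold, whereas H2-K1, 181639 bases from Psmb9, fell. Between the start of Tapbp and the end of H2-D1, 77 of 146 genes were tested, of which 5 rose and 7 fell. That is 15.6%, beside 14.6% called in either direction over all tested genes. Without the 7 members, 11 of 70 genes (15.7%) were called and the median log2 fold change was 0.15. The largest changes were those of C4b, a complement component 4 gene (-4.12), and Gm17705, a noncoding RNA gene (-3.15). Next came Ager, a receptor for glycated proteins (3.07), Ly6g5b (2.33), Tnxb, a tenascin of the matrix (-1.71), and Prrt1, a synaptic membrane protein (-1.46). C4b had 13.9 and 7.68 normalized counts in the Q344X libraries, against 333 and 116 in the WT libraries. C4a, the other complement component 4 gene in the interval, rose (1.40, adjusted p = 0.0336, limma). It had 90.1 and 68.1 in the Q344X libraries, against 29.1 and 29.1 in the WT libraries. Sequence shared between C4a and C4b was not examined. Changed genes in this interval were interspersed with others that did not pass, in both directions. Without Q344X replicate 1 the interval held 24 called genes, without WT replicate 2 it held 6, and there Tnxb and Prrt1 lost their calls (adjusted p = 0.0737 and 0.0567).

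**Figure D4:**
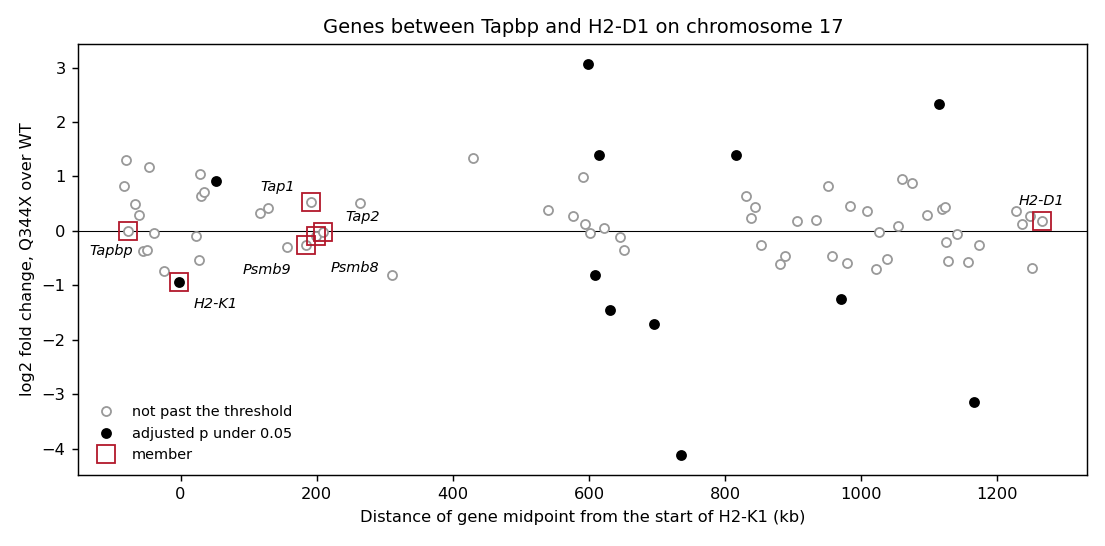
Log2 fold changes of Q344X over WT against the distance in kb from the start of H2-K1, for the 77 tested genes between Tapbp and H2-D1; filled points passed an adjusted p of 0.05 and red squares mark the 7 members. H2-K1 at -0.95 is the 1 member past the threshold, and Psmb9, Tap1, Psmb8 and Tap2 stand together between -0.25 and 0.53.

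Per kb of annotated exon, the order of mean levels differed between the groups at its top and among the genes below Tap2. H2-D1 was highest in Q344X, at 325 ± 102 normalized counts per kb (SD, n = 2), followed by B2m at 282 ± 26.7 and Tapbp at 233 ± 25.3, and neighbours in this order had overlapping spreads. In WT, B2m was highest at 419 ± 73.8, followed by H2-D1 at 282 ± 29.4 and Tapbp at 234 ± 9.43, with no overlap of 1 SD between neighbours. H2-K1 came next in both, at 76.6 ± 5.36 in Q344X and 148 ± 5.29 in WT, clear of Tapbp above and Tap2 below. Tap2 stood at 38.2 ± 3.02 in Q344X and 39.0 ± 9.03 in WT. The remaining genes were below 20 per kb in both groups, with Cd74 at 4.38 ± 2.15 in Q344X and 19.7 ± 3.36 in WT, and Psmb9 at 3.72 ± 0.672 in Q344X and 4.46 ± 0.279 in WT. Psmb8 stood at 13.1 ± 4.81 in Q344X and 13.6 ± 2.21 in WT, Tap1 at 12.05 ± 2.91 in Q344X and 8.32 ± 2.19 in WT, and Nlrc5 at 4.19 ± 5.29 in Q344X and 2.55 ± 2.11 in WT. In Q344X the spreads of Psmb8 and Tap1 overlapped, as did those of Cd74, Nlrc5 and Psmb9. In WT the spreads of Cd74 and Psmb8 did not overlap, and those of Psmb9 and Nlrc5 did.

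Cd8a, the alpha chain of the CD8 coreceptor for class I, was the 1 gene past the threshold among receptors and ligands of antigen presentation. It had 121 and 72.0 normalized counts in the Q344X libraries, against 9.36 and 12.03 in the WT libraries (log2 fold change 3.02 ± 0.39, SE, adjusted p = 0.0108). The beta chain gene Cd8b1 was at 0 reads in every library, and the T cell genes Cd3d, Cd3e and Cd3g had at most 1 read in a library. Cd4, the coreceptor for class II, had 7 and 5 reads in the Q344X libraries, against 1 and 2 in the WT libraries, and was higher in both Q344X libraries, below the filter. Ifng, which encodes interferon-gamma, had 0 and 4 reads in the Q344X libraries, against 0 and 0 in the WT libraries. Of 17 genes in this list 4 were tested, and Mif, a ligand of the invariant chain, Cd44, its coreceptor, and Cd40, a costimulator, had -0.15, -0.70 and 0.20, none past the threshold. Cd44 was called lower without Q344X replicate 1.

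Markers of cells that carry MHC were read beside these results. Of 16 microglia and macrophage markers 0 passed (limma, 1 at an unadjusted p under 0.05, and 0 in edgeR), and their summed level was 1840 and 2125 normalized counts in the Q344X libraries, against 1856 and 1581 in the WT libraries. The sums overlapped between the groups. Of 7 dendritic cell markers 2 were tested. The sum of all 7, mostly Zbtb46, was 259 and 318 in the Q344X libraries, against 178 and 134 in the WT libraries. Zbtb46 alone had 224 and 286 in the Q344X libraries, against 132 and 114 in the WT libraries. Flt3, the other tested marker, had a log2 fold change of 0.12 (adjusted p = 0.882, limma). Itgax stood at 2.97 and 4.80 in the Q344X libraries, against 4.16 and 3.01 in the WT libraries. The B cell markers Ms4a1 and Cd79a had at most 3 reads in a library. Nkg7, of cytotoxic cells, had 12 and 1 reads in the Q344X libraries, against 1 and 1 in the WT libraries, below the filter. The sum of 9 markers of T, B and NK cells, mostly Cd8a, was 144 and 79.7 in the Q344X libraries, against 15.6 and 17.04 in the WT libraries. Zbtb46, which endothelial cells express too, rose by 1.04 on the log2 scale, and lost its call without Q344X replicate 2 or either WT library.

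Markers of vessels, blood and retinal cells were read in the same way, beside 5.46% called higher and 9.10% called lower over all tested genes. Of 8 endothelial markers Tie1 rose (1.25 ± 0.21, SE, adjusted p = 0.0201), 0 fell and 7 did not pass. In this list 4 of 8 had an unadjusted p under 0.05 (limma), 6 had a positive log2 fold change, and the median was 0.54. The summed level of the list, largely Kdr, was 8119 and 6207 normalized counts in the Q344X libraries, against 6679 and 4882 in the WT libraries. Of 4 tested erythrocyte markers, Hbb-bt (-2.82 ± 0.52) and Hba-a1 (-1.72 ± 0.33) fell, and the summed level of all 5 was 122 and 261 in the Q344X libraries, against 477 and 503 in the WT libraries. Hba-a1 did not pass without WT replicate 1, nor did Tie1 without WT replicate 2. Of 7 rod markers Gnat1 (-2.31 ± 0.20) and Pde6a (-1.68 ± 0.23), both of phototransduction, fell, 0 rose and 5 did not pass, and their sum was 298670 and 329272 in the Q344X libraries, against 491243 and 533928 in the WT libraries. Of 8 markers of Müller glia and astrocytes, which summed to 86865 and 82195 in the Q344X libraries and 99489 and 88950 in the WT libraries, Aqp4 fell to 0.499 of its WT level, and it did not pass without either WT library. Of 6 pericyte markers 0 passed (limma, 0 at an unadjusted p under 0.05, and 0 in edgeR), with a sum of 3121 and 2508 in the Q344X libraries, against 3348 and 2765 in the WT libraries. The part of these markers in the levels of H2-K1 and Cd74 was not tested.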

How the data were processed

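Retinal RNA was selected for polyadenylated transcripts and sequenced from directional libraries, per the labels' protocols. The deposited signal per gene is, as its values show, a gene count divided by a size factor for each library by the authors. Per the submitters' processing notes, STAR, featureCounts, DESeq2 (1.16.1), FastQC and Trim Galore (0.4.4) were used with build mm10. No annotation or strand setting is given in the sources used here. In every library 100% of values above 0 were within 0.1 of a whole number of reads.

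Symbols matched 52403 of 52636 identifiers, and positions and exon lengths are from GENCODE M21 (GRCm38, also called mm10). Genes with a mean of at least 10 were tested in R 4.3.3 with limma 3.58.1 on log2(value + 1), a scale that understates changes of low genes, with a mean-variance trend, Benjamini-Hochberg adjustment over all tested genes and two-sided tests. The fit had 2 residual and 3.90 prior degrees of freedom. On simulated data with the same dispersion for every gene, it recovered 60 of 100 changes of 2-fold. Of changes of 4-fold it recovered 97 of 100, with 0 false calls. Real genes need not share that dispersion. Ratios used exact permutation tests (SciPy 1.17.1). Replicate numbers only name libraries. Since the labels do not tie each library to 1 animal, p-values measure the spread between libraries.

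The 10 genes and all lists were chosen with earlier results of these data known, so no list was tested as a set. In the lists of regulators, of rod markers and of lymphocyte markers, 1 gene each is not reported here. In each pathway list, up to 6 called genes by size of change and up to 4 others by mean level are named. In marker lists and on chromosome 17 only called genes were taken. H2-Aa, Ciita, Cd8b1, Cd4, Ifng, Nkg7, Itgax, Flt3, Kdr and the CD3 and B cell genes were named after their values were seen. So were C4a, Nfyb, Nfyc, Irf1, Irf8, Nfkb1, Rela and Relb, whose calls under the alternatives are not given. Alternatives were other pseudocounts, filters, scalings and variance moderation and leaving out each library. A correction for length and GC content, and edgeR 4.0.16 (quasi-likelihood) on the recovered counts, were added after seeing the data. edgeR called 861 genes higher and 1559 lower, against 919 and 1531 in limma. Counting intervals cover counting error only. Promoter windows were found for 7 of the 10 genes.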

Additional observations from a re-analysis of the deposited data

How the results depend on the processing

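Between 0 and 2 of the 10 genes were called lower under every alternative, and 1 was called higher only without Q344X replicate 2. No paired analysis was possible because the labels give no replicate numbers or pairing. The cause of the changes below was not tested. A test of every gene above 0 adjusts over more genes and also pools variances across them, and a minimum mean of 50 leaves fewer. The parts of the adjustment and of the variances were not told apart.

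Without a filter, 153 genes were higher and 383 lower, 0 of the 10 genes were lower, 1 class I heavy chain, 0 standard proteasome genes, 0 class II genes, 0 regulators and 2 genes of the chromosome 17 interval were called. With a minimum mean of 50, 1 of the 10 genes was lower, and 2 class I heavy chains and 0 class II genes were called. Cd74, H2-Q2 and H2-T24 had means below that minimum and were not tested in that fit. With the length and GC correction, 1766 genes were higher, and 1 loading gene, 1 immunoproteasome gene (Psmb10), 3 standard proteasome genes and 20 genes of the interval were called.

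Leaving out single libraries gave 555 to 2388 higher and 904 to 3045 lower genes, 0 to 2 of the 10 genes lower and 0 to 1 higher, and a median of the 10 from -0.29 to -0.087. Called genes numbered 1 to 5 among class I heavy chains, 0 to 0 in loading, 0 to 1 in the immunoproteasome, 0 to 8 in the standard proteasome, 0 to 2 in class II, 0 to 8 among regulators, 1 to 2 among receptors and 6 to 24 in the interval.

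Direction turned for genes near 0. Under quantile normalization Tap2 had 0.18, Psmb8 0.10, Nlrc5 0.23 and Jak1 -0.054. Nlrc5 also had 0.11 with a pseudocount of 5, 0.0098 with the length and GC correction and 0.68 in edgeR. Jak1 had -0.029 with 75th percentile scaling and Ifi30 -0.013 with the length and GC correction. With single libraries left out, log2 fold changes ranged from -0.15 to 0.50 for H2-D1, -0.25 to 0.22 for Tap2, -0.12 to 0.10 for Tapbp, -0.47 to 0.28 for Psmb8, -1.96 to 1.86 for Nlrc5, -0.74 to 0.12 for H2-Q4, -0.063 to 0.21 for H2-T22, -0.062 to 0.29 for Pomp, -0.075 to 0.31 for Psme2, -0.095 to 0.48 for Ctss, -0.17 to 0.33 for Ifi30, -0.092 to 0.15 for Jak1 and -0.36 to 0.063 for Mif. The single genes that lost a call without a filter included H2-K1 and Cd74. Depth limits Cd74, Psmb9, H2-T24 and the class II chains, which rest on few reads per library.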
